A study of Zea mays with 10 samples.

Results

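AL9, VPP7, SBT1 and 1d024120 (Zm00001d012572, Zm00001d015569, Zm00001d023684 and Zm00001d024120) are 4 of the genes that the study used as markers of the aleurone layer (AL) of maize endosperm. They were taken by identifier from the 45953 genes of the count tables, and all 4 were measured in all 10 bulk RNA-seq libraries. All libraries came from wild-type endosperm of the inbred line B73 grown in a greenhouse, at 7 or 6 days after pollination (DAP). The replicated endosperm had 3 libraries at 7 DAP and 3 at 6 DAP, each from pooled endosperms, and the study's methods describe the replicates of a stage as separate ears. A second set had single libraries of protoplasts at 7 and 6 DAP and of undigested endosperm at 7 and 6 DAP. Protoplasts are cells freed from their walls, here with cellulase, macerozyme and pectolyase, so a protoplast library holds only cells that came out of the tissue and carries the time spent in the enzymes. An extraction text shared by all labels names pooled endosperms of several ages, and the age of each library was taken from its own label.

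The aleurone is the outermost layer of the cereal endosperm. Its cells keep a living cytoplasm in the mature grain, store oil, protein and minerals, and secrete hydrolases at germination, while the starchy endosperm (SE) beneath them fills with starch and dies. The fate of an aleurone cell depends on its position at the surface and on signalling through the receptor kinase CR4. AL9 is an aleurone cDNA with no known function. VPP7 is a vacuolar H+-translocating inorganic pyrophosphatase, a membrane pump that uses the energy of pyrophosphate to acidify the vacuole. SBT1 is a subtilisin-like serine protease annotated as expressed in the aleurone for a short developmental window. 1d024120 is named here by the end of its identifier, and its annotation is a homolog of ZRP4, an O-methyltransferase first described in maize roots. The study's text writes this identifier with its digits in another order, and the form in its tables was used here.

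SBT1 was among the transcripts that the study located in kernel sections by in situ hybridization. The primers that bounded its probe are shown because they mark the stretch the study used to see SBT1 in the aleurone, and both are 20 bases long. They were not matched to the gene model here. The reverse primer is written 5′ to 3′ on the opposite strand, without the promoter tail used to transcribe the probe.
SBT1 forward: gcatcgcagctgtcatcaag
SBT1 reverse: ggcaagtcaatctcaacggc

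Total counts per library lay between 15911047 and 24311056 in the replicated endosperm and between 22234742 and 30203337 in the single libraries. Levels are given as CPM, counts scaled to a common library size, after TMM scaling over all 10 libraries, a scaling that sets aside genes with extreme ratios. The fewest counts of any marker in any library were 3182, for 1d024120, so counting error was small: its mean counting error was 1.35% at 7 DAP and 1.63% at 6 DAP. Since uniquely mapped reads alone were counted, levels are not compared between genes, and reads shared with near-identical copies are missing from the rows. In bulk tissue, a change in the number of aleurone cells and a change in transcript per cell cannot be told apart.

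The markers were all detected at high counts in the labelled tissue, and markers of the other endosperm domains were present too. None of 22 markers of the SE, the basal transfer cells (BETL), the region around the embryo (ESR), the endosperm next to the scutellum (EAS), the nucellus, the cell cycle or the response to stimuli was at 0 in any library. Protoplast libraries stood apart in several of them. The summed SE markers were at 1798 and 2050 CPM in protoplasts at 7 and 6 DAP, against 7288 and 5302 CPM in undigested endosperm. The summed ESR markers were at 784 and 96.1 CPM in protoplasts at 7 and 6 DAP, against 1962 and 375 CPM in undigested endosperm. HSP26, a small heat shock protein and the stimulus response marker, was at 48.0 and 26.5 CPM in protoplasts at 7 and 6 DAP, against 2.40 and 1.18 CPM in undigested endosperm.

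The first comparison asked how the 4 markers change as the endosperm passes from the early to the late phase of differentiation, in the replicated libraries. All 4 were higher at 7 DAP than at 6 DAP, as 28.2% of all tested genes were at an adjusted p under 0.05. The 7 DAP libraries did not overlap the 6 DAP libraries for any of the 4, and 31.3% of tested genes had every 7 DAP library above every 6 DAP library.

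AL9 was at 4493, 4661 and 4502 CPM at 7 DAP, against 2621, 2607 and 2733 CPM at 6 DAP. Every 7 DAP library was above every 6 DAP library, with means of 4552 ± 94.2 CPM at 7 DAP and 2654 ± 69.1 CPM at 6 DAP (SD, n = 3 each). The log2 fold change was 0.78 ± 0.02 (SE), a 1.71-fold rise (edgeR adjusted p = 1.6e-18). AL9 changed most of the 4.

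SBT1 was at 3759, 3879 and 3847 CPM at 7 DAP, against 2496, 2472 and 2501 CPM at 6 DAP. The 6 DAP libraries of this protease gene were the closest to each other of any marker and stage, with a coefficient of variation of 0.61%. Means were 3828 ± 62.1 CPM at 7 DAP and 2490 ± 15.2 CPM at 6 DAP (SD, n = 3 each). The log2 fold change was 0.62 ± 0.01 (SE), a 1.54-fold rise (edgeR adjusted p = 9.6e-19).

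1d024120, the O-methyltransferase homolog, was at 273, 288 and 277 CPM at 7 DAP, against 199.99, 198 and 204 CPM at 6 DAP. Means were 279 ± 7.71 CPM at 7 DAP and 201 ± 3.42 CPM at 6 DAP (SD, n = 3 each). The log2 fold change was 0.48 ± 0.03 (SE), a 1.39-fold rise (edgeR adjusted p = 5.8e-12).

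VPP7, the vacuolar proton pump, was at 628, 643 and 628 CPM at 7 DAP, against 475, 465 and 475 CPM at 6 DAP. Means were 633 ± 9.07 CPM at 7 DAP and 472 ± 5.92 CPM at 6 DAP (SD, n = 3 each). It had the smallest stage change of the 4, with a log2 fold change of 0.42 ± 0.02 (SE), a 1.34-fold rise (edgeR adjusted p = 4.4e-13).

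**Figure D1:**
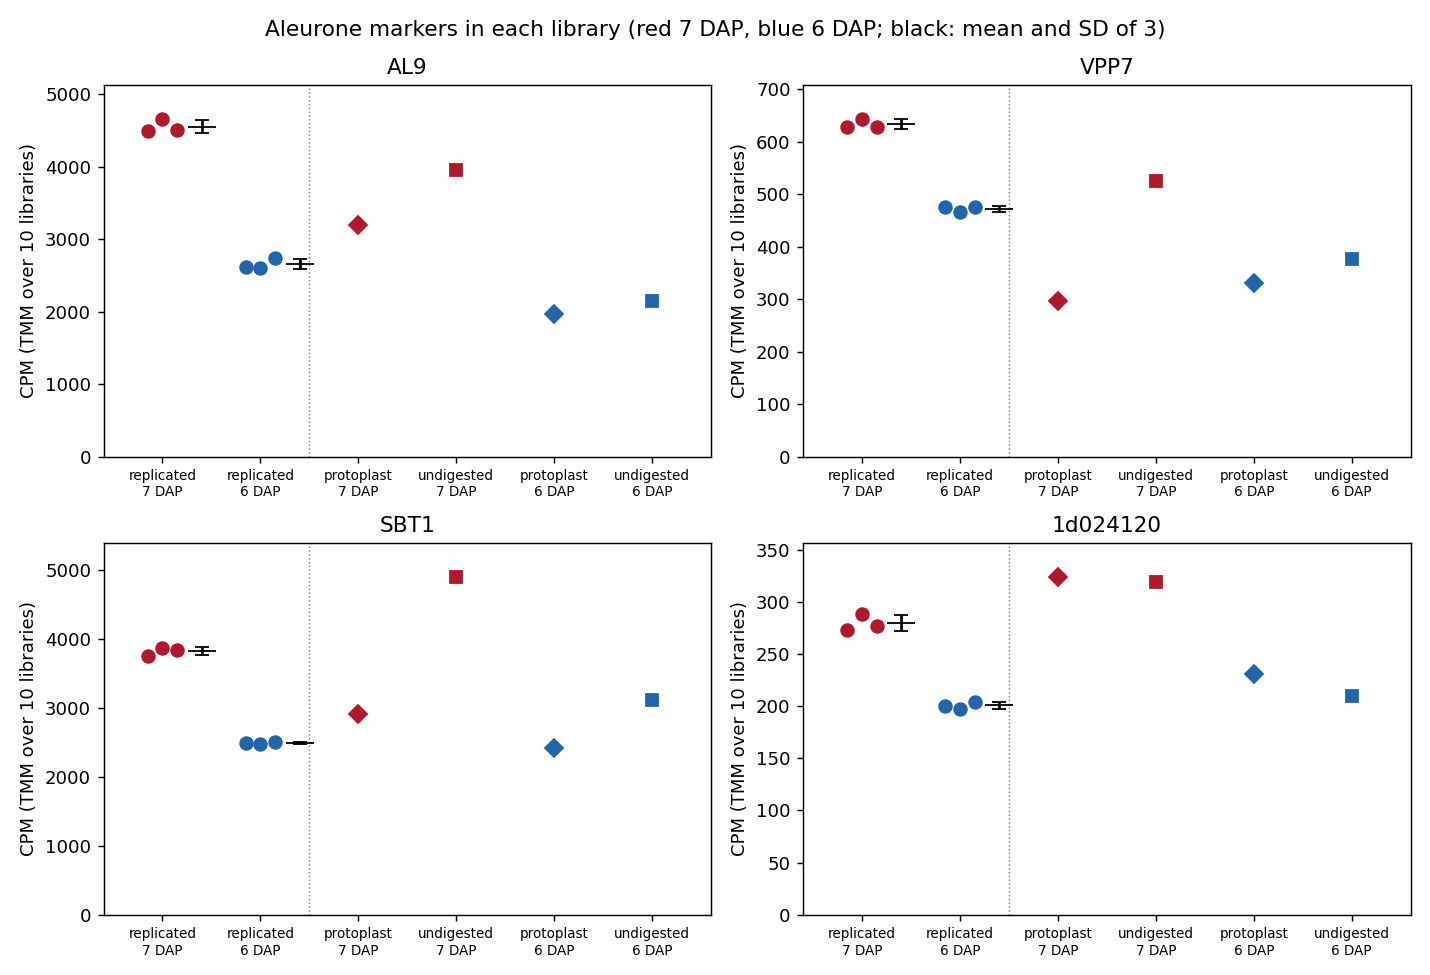
CPM of AL9, VPP7, SBT1 and 1d024120 (y axis, TMM over 10 libraries, from 0) in each library, by set and stage on the x axis, with red for 7 DAP and blue for 6 DAP. Circles are the replicated libraries with their mean and SD in black, diamonds are protoplasts and squares are undigested endosperm. The 7 DAP circles lie above the 6 DAP circles in all 4 panels, and VPP7 is at 296 CPM in 7 DAP protoplasts, below the 330 CPM of 6 DAP protoplasts.

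With 3 libraries in each stage, an exact permutation test of any single gene cannot go below p = 0.1 (two-sided), and each of the 4 markers had that value. The adjusted p-values above rest on a spread shared across genes. Calls were frequent in this comparison: of the 21486 genes tested, 28.2% were called higher at 7 DAP and 28.0% lower. All 4 markers were called higher, with log2 fold changes above those of 79.4% (VPP7) to 89.4% (AL9) of the tested genes. The study's rule also asks for a log2 fold change over 2, which 2.99% of the tested genes passed and which 0 of the 4 markers reached. The median log2 fold change of the 4 was 0.55, against 0.02 over all tested genes.

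Added up, the 4 markers held 0.995% ± 0.0119 of all counts at 7 DAP and 0.575% ± 0.00845 at 6 DAP (SD, n = 3 each). AL9 and SBT1 carried most of it. AL9 alone held 0.487% ± 0.00778 at 7 DAP and 0.262% ± 0.00679 at 6 DAP (SD, n = 3 each). Shares of counts follow library totals, so they carry the scaling difference between stages that TMM removes. On library totals the median log2 change of all tested genes was 0.13, and AL9 and VPP7 were at 0.89 and 0.54.

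The single undigested libraries gave a separate pair of stages. In undigested endosperm AL9 was at 3956 CPM at 7 DAP, against 2146 CPM at 6 DAP. SBT1 was at 4903 CPM at 7 DAP, against 3112 CPM at 6 DAP. VPP7 was at 525 CPM at 7 DAP and 376 CPM at 6 DAP, and 1d024120 was at 319 CPM at 7 DAP and 210 CPM at 6 DAP. The log2 fold changes followed the order seen in the replicated libraries, 0.88 ± 0.03 for AL9, 0.66 ± 0.02 for SBT1, 0.61 ± 0.05 for 1d024120 and 0.48 ± 0.04 for VPP7 (SE). The 95% intervals of SBT1 and 1d024120 overlapped (0.61 to 0.70 and 0.51 to 0.71), as did those of 1d024120 and VPP7 (0.40 to 0.56), so these neighbours in the order were not resolved. These errors come from the spread of the replicated libraries, since a group of 1 library has none of its own, and it was assumed that single libraries vary like them. In that fit of all 10 libraries 16.1% of 24368 tested genes were called higher in undigested endosperm at 7 DAP, and the 4 markers were among them (edgeR adjusted p at most 1.9e-09).

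Stage changes of undigested and replicated endosperm were close for VPP7 and SBT1. Their difference, undigested minus replicated, was 0.06 on the log2 scale for VPP7 (95% interval -0.03 to 0.14) and 0.03 for SBT1 (95% interval -0.02 to 0.09). For AL9 it was 0.10 (0.03 to 0.17) and for 1d024120 it was 0.13 (0.02 to 0.24), and the edgeR adjusted p was 1.00 for each of the 4. This contrast and that of the levels in the next paragraph were chosen after the values were seen.

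The levels themselves differed between the undigested and the replicated sets, and not in one direction. Over both stages AL9 was 0.25 ± 0.02 lower on the log2 scale in undigested single libraries than in replicated ones, and VPP7 was 0.30 ± 0.02 lower (SE, edgeR adjusted p = 1.9e-10 and 5.1e-10). SBT1 was 0.34 ± 0.01 higher and 1d024120 was 0.13 ± 0.03 higher (SE, edgeR adjusted p = 2.9e-14 and 7.3e-04). In this contrast 15.5% of the tested genes were called lower in undigested endosperm and 19.8% higher. The set and whatever differed in its handling cannot be told apart, so levels are compared within a set only.

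In protoplasts the stage change was uneven across the markers. AL9 was at 3195 CPM in protoplasts at 7 DAP, against 1972 CPM at 6 DAP, a log2 fold change of 0.70 ± 0.03 (SE). 1d024120 was at 324 CPM at 7 DAP, against 231 CPM at 6 DAP, a log2 fold change of 0.49 ± 0.05 (SE). SBT1 was at 2917 CPM at 7 DAP, against 2428 CPM at 6 DAP, a log2 fold change of 0.26 ± 0.02 (SE). The protease thus rose by less than AL9 and 1d024120 did. VPP7 was at 296 CPM at 7 DAP, against 330 CPM at 6 DAP, and was the marker that was lower at 7 DAP, with a log2 fold change of -0.16 ± 0.04 (SE, edgeR adjusted p = 0.0033). In protoplasts 13.9% of tested genes were called higher at 7 DAP and 14.0% lower, and 3 of the 4 markers were called higher and 1 lower.

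The difference between the stage change of protoplasts and that of undigested endosperm was tested in the same fit. It was -0.63 on the log2 scale for VPP7 (95% interval -0.74 to -0.53, edgeR adjusted p = 1.5e-08). It was -0.39 for SBT1 (-0.46 to -0.32, edgeR adjusted p = 1.9e-08) and -0.19 for AL9 (-0.27 to -0.10, edgeR adjusted p = 0.0028). For 1d024120 it was -0.12 (-0.26 to 0.02, edgeR adjusted p = 0.22), which did not pass the test on TMM but did on library totals, at -0.22 (edgeR adjusted p = 0.014). So 3 of the 4 markers had a smaller stage change in protoplasts, beside 9.80% of all tested genes called in that direction and 9.44% in the other. On library totals the median of all tested genes moved to -0.13. Each of these values rests on 4 single libraries, and no repeat of a protoplast library was analysed here.

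The effect of digestion at each stage shows the same 4 libraries from the other side. At 7 DAP, VPP7 was at 296 CPM in protoplasts, against 525 CPM in undigested endosperm, 0.564 times the undigested level (log2 -0.83 ± 0.04, SE). SBT1 was at 2917 CPM in protoplasts, against 4903 CPM, 0.595 times (log2 -0.75 ± 0.02, SE). AL9 was at 3195 CPM in protoplasts, against 3956 CPM, 0.808 times (log2 -0.31 ± 0.03, SE). These 3 were called lower, as were 33.2% of the tested genes, with 32.0% called higher (edgeR adjusted p at most 8.5e-09). 1d024120 was at 324 CPM in protoplasts, against 319 CPM in undigested endosperm (log2 0.02, 95% interval -0.08 to 0.12), and its direction turned with the scaling: on library totals it was -0.20.

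At 6 DAP the same 3 markers were lower in protoplasts, each by less. SBT1 was at 2428 CPM in protoplasts, against 3112 CPM in undigested endosperm (log2 -0.36 ± 0.02, SE). VPP7 was at 330 CPM in protoplasts, against 376 CPM (log2 -0.19 ± 0.04, SE), and AL9 was at 1972 CPM, against 2146 CPM (log2 -0.12 ± 0.03, SE). 1d024120 was at 231 CPM in protoplasts, against 210 CPM in undigested endosperm, a log2 difference of 0.14 ± 0.05 (SE, edgeR adjusted p = 0.014) that fell to 0.02 on library totals (edgeR adjusted p = 0.71). At this stage 29.3% of tested genes were called lower in protoplasts and 31.3% higher. The 4 markers together held 0.604% of counts in 7 DAP protoplasts (95% Wilson interval 0.602% to 0.607%), against 1.02% in 7 DAP undigested endosperm (1.01% to 1.02%). In 6 DAP protoplasts the share was 0.449% (0.447% to 0.452%), against 0.576% in 6 DAP undigested endosperm (0.573% to 0.579%), and these intervals cover counting error only.

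**Figure D2:**
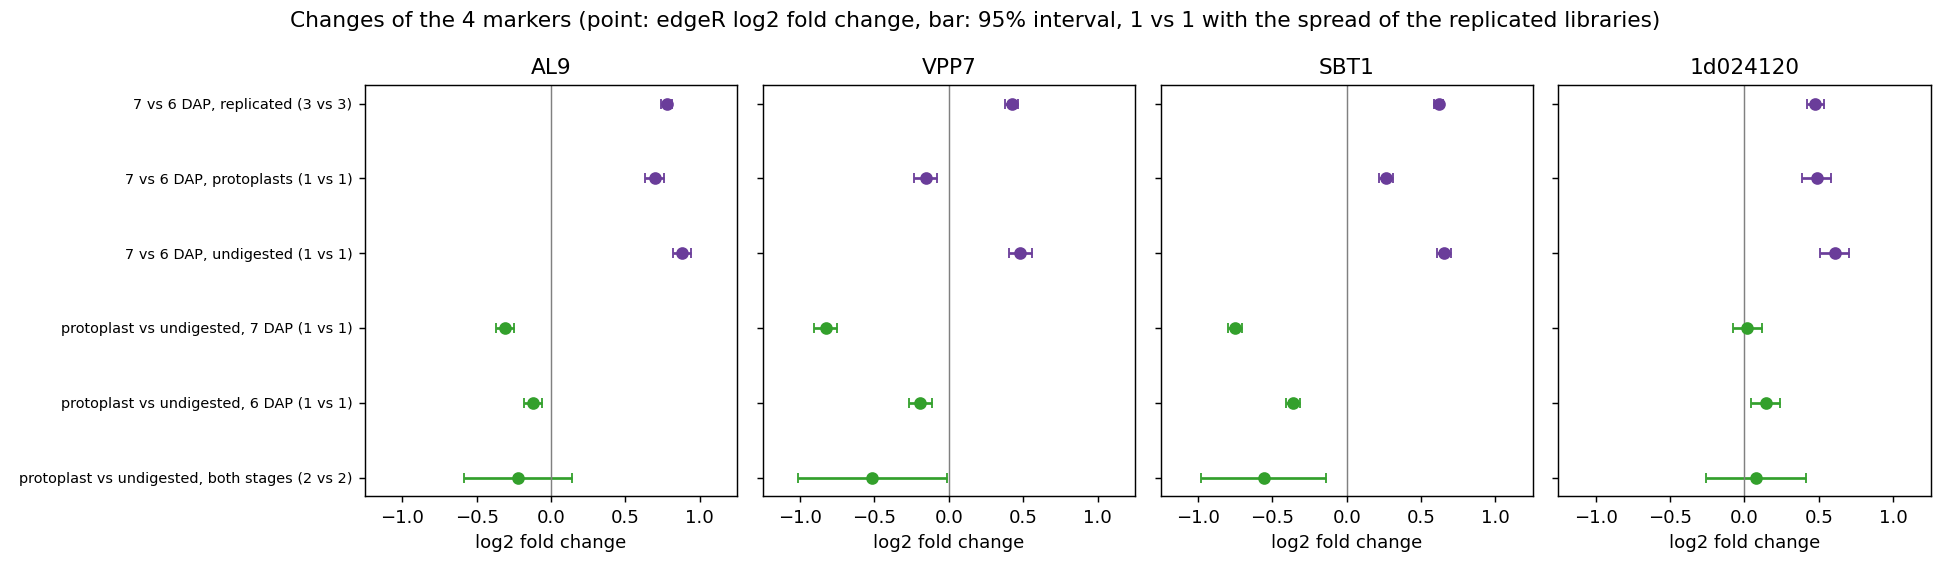
Log2 fold changes (x axis) of each marker in 6 comparisons (rows), with 95% intervals as bars, purple for 7 against 6 DAP and green for protoplasts against undigested endosperm. The 1 against 1 rows borrow the spread of the replicated libraries. VPP7 is at -0.16 for the stage change in protoplasts and at -0.83 for digestion at 7 DAP, while 1d024120 is at 0.49 and 0.02 in the same rows.

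Taking the 2 stages as replicates of the digestion gives a stricter test, since its spread is the disagreement between stages. The biological coefficient of variation was then 19.0%, against 4.14% in the replicated endosperm. SBT1 was 0.56 ± 0.16 lower on the log2 scale in protoplasts (SE, edgeR adjusted p = 0.048). VPP7 was at -0.51 ± 0.19 (SE, edgeR adjusted p = 0.095), AL9 at -0.22 ± 0.14 (SE, edgeR adjusted p = 0.26) and 1d024120 at 0.08 ± 0.13 (SE, edgeR adjusted p = 0.67). In this fit 16.3% of 22799 genes were called lower in protoplasts and 23.0% higher, and 1 of the 4 markers was called. The SBT1 call did not hold without any 1 of the 4 libraries (log2 change -0.88 to -0.23). Those fits had no term for stage, so stage and digestion are mixed in them. With the stage term, the SBT1 call did not hold with RLE size factors (adjusted p = 0.067) or with genes of at least 10 counts in every library alone (adjusted p = 0.061). It held with DESeq2 (adjusted p = 0.023). VPP7 passed on library totals (-0.68, adjusted p = 0.043). In simulated data for this fit, 0% of 200 genes changed by 0.5 on the log2 scale were recovered among 22426 tested. For a change of 2 it was 100% of 200 among 22427. In the measured data, calls were made at changes near 0.5. SBT1 was called at -0.56, and 1 of 11 other vacuolar proton pump genes was called higher, in a list with a maximum of 0.54. How closely the simulated spread matched the measured one was not tested. The median log2 change of the 4 markers was -0.37, against -0.03 over all tested genes, and the lower SE and ESR levels and the higher HSP26 of the protoplast libraries stood beside it. Their part in the markers' change was not tested.

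Because library totals and scaling cancel within a library, the ratio of the counts of a marker pair shows unequal change directly. In all 6 ratios the 7 DAP and the 6 DAP replicated libraries did not overlap, which was common: 59.2% of the 226940860 pairs of tested genes with counts in all 6 libraries did the same, in either direction. The exact permutation p was 0.1 for each of the 6 (two-sided, 20 regroupings, adjusted p 0.1), the smallest that 3 against 3 allows. AL9 to VPP7 was 7.16, 7.24 and 7.17 at 7 DAP, against 5.51, 5.61 and 5.75 at 6 DAP. AL9 to SBT1 was 1.20, 1.20 and 1.17 at 7 DAP, against 1.05, 1.05 and 1.09 at 6 DAP. AL9 thus gained on both genes between the stages. VPP7 to SBT1 was 0.167, 0.166 and 0.163 at 7 DAP, against 0.190, 0.188 and 0.190 at 6 DAP. The ratio that moved least was VPP7 to 1d024120, with a mean log2 ratio of 1.18 ± 0.02 at 7 DAP and 1.23 ± 0.02 at 6 DAP (SD, n = 3 each).

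In the single libraries the ratios also differed between protoplasts and undigested endosperm. VPP7 to 1d024120 was 0.914 in 7 DAP protoplasts, against 1.64 in 7 DAP undigested endosperm, and 1.43 in 6 DAP protoplasts, against 1.80 in 6 DAP undigested endosperm. SBT1 to 1d024120 was 9.01 in 7 DAP protoplasts, against 15.3 in 7 DAP undigested endosperm. VPP7 and SBT1 thus both lost ground to 1d024120 in the digested 7 DAP sample. AL9 to VPP7 was 10.8 in 7 DAP protoplasts, against 7.54 in 7 DAP undigested endosperm. AL9 to SBT1 was 0.807 and 0.689 in undigested endosperm at 7 and 6 DAP, below all 6 replicated libraries.

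**Figure D3:**
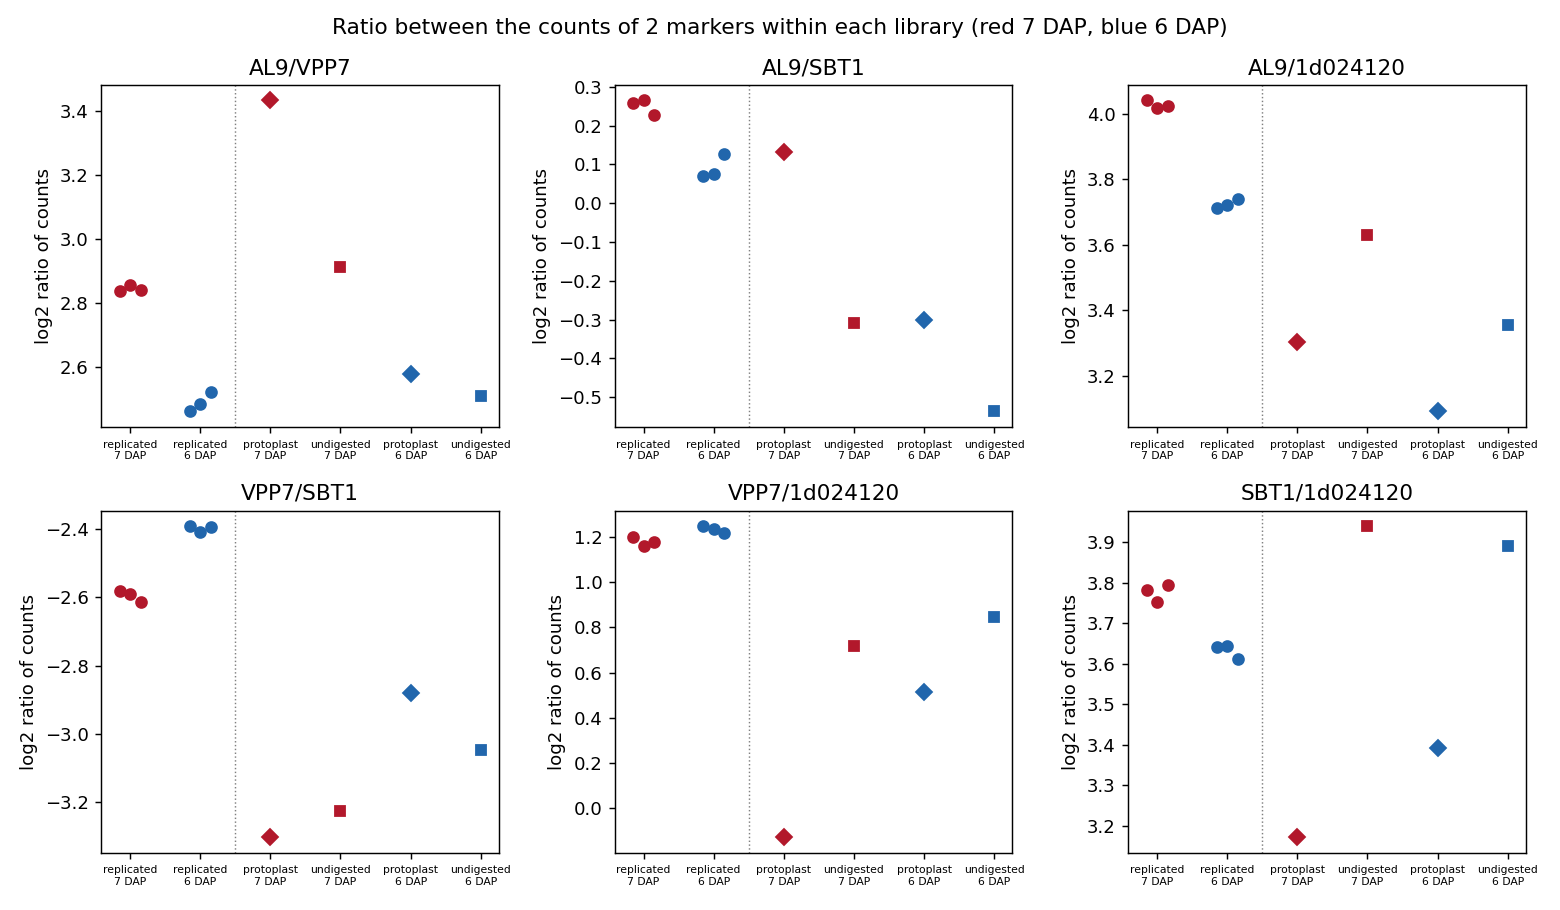
Log2 ratio of the counts of 2 markers within a library (y axis, 1 panel per pair) in the replicated libraries (circles), protoplasts (diamonds) and undigested endosperm (squares), red for 7 DAP and blue for 6 DAP. In each panel the replicated 7 DAP circles do not overlap the 6 DAP circles. The ratio of VPP7 to 1d024120 is 0.914 in 7 DAP protoplasts, against 1.64 in 7 DAP undigested endosperm.

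Across all 10 libraries the markers did not trace one common pattern. Pearson's r of log2(CPM + 1) was 0.79 between AL9 and SBT1, 0.76 between AL9 and VPP7, 0.76 between SBT1 and 1d024120 and 0.15 between VPP7 and 1d024120 (n = 10 libraries). The libraries share 1 scaling and fall into stages, sets and treatments, so r is a description of that layout. Among 13448 other genes with a mean of at least 10 CPM, the marker nearest to AL9 was SBT1 at rank 549. The genes most like AL9 were INVINH1, an invertase inhibitor by name, with r of 0.99, the ESR marker ESR6, RF2, 1d007501 and 1d018251. Those most like VPP7 were 1d014866, with r of 0.99, the Alba DNA/RNA-binding protein homolog 1d004837, 1d053931, 1d016308 and 1d039693. Those most like SBT1 were the cyclin gene CYC5, with r of 0.99, 1d002024, 1d009960, 1d025893 and 1d029237. For 1d024120 they were 1d022421, a hydroxyproline-rich glycoprotein homolog with r of 0.99, the sucrose synthase gene SUS1, NBCS4, cl15935_1 and 1d034573. In the 6 replicated libraries alone, 0 of the 5 genes were kept for each marker and the markers' own ranks rose, VPP7 being 21st for AL9. There r was 0.998 between VPP7 and 1d024120, and the lowest of any marker pair was 0.997, between SBT1 and 1d024120.

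1d022421 was chosen by its likeness over these same libraries, so its values only describe that likeness. It was at 15803 CPM in 7 DAP protoplasts, against 16088 CPM in 7 DAP undigested endosperm, and at 11940 CPM in 6 DAP protoplasts, against 11128 CPM in 6 DAP undigested endosperm. In the replicated libraries its log2 stage change was 0.54 ± 0.01 (SE, edgeR adjusted p = 1.7e-19). CYC5, nearest to SBT1, was at 75.5 CPM in 7 DAP protoplasts, against 106 CPM in 7 DAP undigested endosperm. Its stage change was 0.42 (edgeR adjusted p = 4.6e-09).

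The study's single-cell table lists other genes as higher in its AL clusters, and 24 of them, from the rows held here, served as a wider AL list. They were chosen by the study on single protoplasts of the same material, so their direction is not independent evidence. At 7 DAP, 16 of the 24 rose, 5 fell and 3 did not pass the test, beside 28.2% of all tested genes called higher and 28.0% lower. The median log2 change was 0.59, against 0.02 over all tested genes. The oil-body protein gene pco070107, an oleosin, rose by 3.06 ± 0.20 (SE) to a mean of 13.0 CPM at 7 DAP, against 1.46 CPM at 6 DAP. The lipid transfer protein gene 1d013907 rose by 2.01 ± 0.15 and the sucrose synthase homolog 1d029087 by 1.71 ± 0.04 (SE). The 6 DAP libraries of 1d013907 were far apart, at 41.5, 33.2 and 15.5 CPM, against 124, 123 and 124 CPM at 7 DAP. The cytochrome c homolog 1d038218 changed by -0.48 ± 0.03, the phytosulfokine peptide gene PSK1 by -0.35 ± 0.03 and 1d001880 by -0.27 ± 0.05 (SE), all lower at 7 DAP.

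In protoplasts, of the 24 genes 9 were called higher, 0 lower and 15 were not past the test, beside 23.0% of all tested genes called higher and 16.3% lower. The median log2 change was 0.34, against -0.37 for the 4 markers and -0.03 for all genes. The ranges overlapped, -0.42 to 2.66 for the 24 genes and -0.56 to 0.08 for the 4 markers, and a difference between the lists was not tested. The count of 9 fell without 7 DAP protoplasts, 6 DAP protoplasts or 6 DAP undigested endosperm, in fits with no term for stage. The largest rises were those of 1d029087 (2.66 ± 0.49), the glycosyltransferase homolog 1d021167 (1.56 ± 0.13) and the lipid transfer protein gene LTPG1 (1.29 ± 0.13, SE). LTPG1 was at 629 and 322 CPM in protoplasts at 7 and 6 DAP, against 269 and 126 CPM in undigested endosperm. The stage change of the wider list differed between protoplasts and undigested endosperm in 2 genes upward and in 9 downward, of 24. Of all tested genes 9.44% were called upward in this contrast and 9.80% downward. 1d008620 and 1d029087 had the most negative differences, both -1.92 ± 0.08 (SE, edgeR adjusted p = 4.4e-13 and 8.6e-13). 1d008620, a metallothionein homolog, was at 70.8 CPM in 7 DAP protoplasts, against 184 CPM in 7 DAP undigested endosperm, and at 129 CPM in 6 DAP protoplasts, against 88.8 CPM in 6 DAP undigested endosperm. It was named after its values were seen.

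Other genes of the vacuolar proton pumps, which include the V-ATPase and further pyrophosphatases, mostly fell at 7 DAP, where VPP7 rose. Of 11, 7 fell, 1 rose and 3 did not pass, with a median of -0.18, and on library totals 3 were called higher and 6 lower. Of all tested genes 28.0% were called lower at 7 DAP and 28.2% higher, on TMM. The V-ATPase subunit genes 1d036018, 1d004821 and 1d007118 fell by 0.42, 0.37 and 0.30 on the log2 scale. VPP2, VPP3 and VPP8, named with VPP7, were lower at 7 DAP by smaller amounts, at -0.19, -0.18 and -0.15 (edgeR adjusted p at most 0.0040), and they were singled out after their values were seen. The exception was uaz280c(ppp), annotated as a pyrophosphate-energized proton pump of the vacuolar membrane, which rose by 0.39 ± 0.02 (SE, edgeR adjusted p = 1.0e-11). It was at 596, 605 and 612 CPM at 7 DAP, against 474, 466 and 440 CPM at 6 DAP. In protoplasts at 7 DAP it was at 454 CPM, against 635 CPM in undigested endosperm, and at 6 DAP it was at 378 CPM in protoplasts, against 477 CPM in undigested endosperm. So uaz280c(ppp) was lower in protoplasts at both stages, as VPP7 was, but its stage change in protoplasts stayed upward at 0.26 ± 0.04 (SE), where that of VPP7 was -0.16. How many reads the pair lost or shared through sequence likeness was not tested.

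Both genes of the subtilisin-like protease list rose at 7 DAP, pco136952 by 0.30 ± 0.03 and 1d033039 by 0.19 ± 0.03 (SE), less than the 0.62 of SBT1. Of all tested genes 28.2% were called higher at 7 DAP. Over both stages 1d033039 was lower in protoplasts by 1.05 ± 0.13 (SE, edgeR adjusted p = 0.0049), while pco136952 was at 0.17 ± 0.14 and was not called. The call of 1d033039 was lost without 6 DAP protoplasts, in a fit with no term for stage. Of 3 O-methyltransferase genes of lignin and phenylpropanoid synthesis, OMT2 rose by 0.25 at 7 DAP, OMT1 fell by 0.14 and BM3 did not pass the test. In protoplasts OMT1 was higher by 1.37 and BM3 by 0.74 (edgeR adjusted p = 0.0021 and 0.012). OMT2, at -0.16, was not called, nor was 1d024120, at 0.08. The calls of OMT1 and BM3 did not both hold without either protoplast library or without 7 DAP undigested endosperm. Those fits had no term for stage.

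Dehydrins are water-stress proteins that accumulate in late seed development. The study also names a dehydrin gene, DHN1, beside SBT1 as a distinctive gene of the AL. Of 6 dehydrin genes, 5 rose at 7 DAP, DHN1 by 1.98, DHN13 by 1.60 and DHN2 by 0.59. In protoplasts 6 of 6 were higher, by 1.80 to 5.55 on the log2 scale. Of all tested genes 28.2% were called higher at 7 DAP and 28.0% lower, and in protoplasts 23.0% higher and 16.3% lower. The summed dehydrins were at 1746 and 1973 CPM in protoplasts at 7 and 6 DAP, against 303 and 219 CPM in undigested endosperm. DHN1 was at 107 and 77.6 CPM in protoplasts at 7 and 6 DAP, against 3.56 and 0.83 CPM in undigested endosperm. Of 4 lipid transfer protein genes, 2 of which also belong to the wider AL list, 3 rose at 7 DAP, among them PLT1 by 1.01 ± 0.05 (SE), and 1d029365 fell by 0.37 ± 0.02 (SE). 1d029365 was also lower in protoplasts, by 0.65 ± 0.16 (SE, edgeR adjusted p = 0.029). The calls of lipid transfer protein genes in protoplasts were lost without either protoplast library or without 6 DAP undigested endosperm. Those fits had no term for stage.

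**Figure D4:**
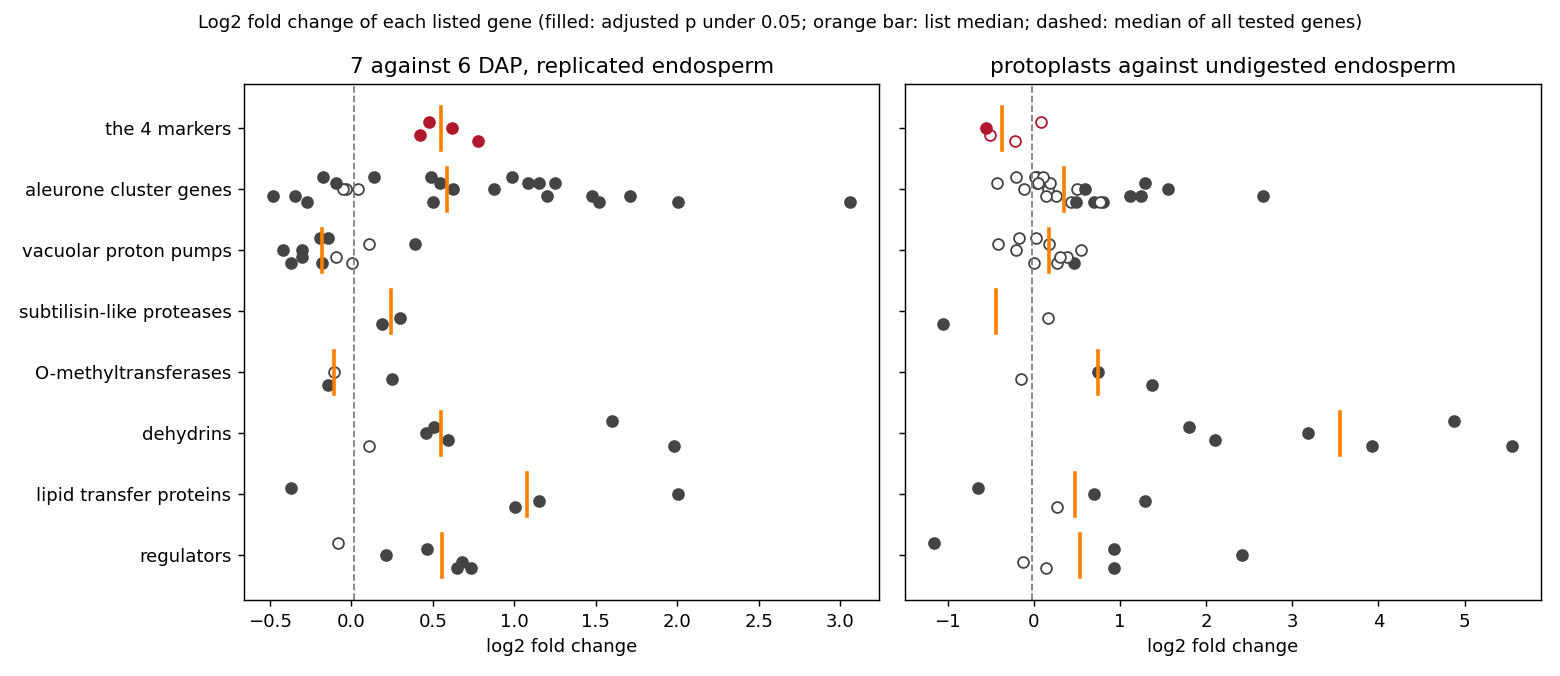
Log2 fold change (x axis) of each gene of the 4 markers (red) and of 7 other lists (grey, rows), for 7 against 6 DAP on the left and protoplasts against undigested endosperm on the right. Filled points passed an adjusted p of 0.05, orange bars are list medians and the dashed line is the median of all tested genes. The median of the 4 markers is 0.55 on the left and -0.37 on the right, where the 24 wider AL genes (aleurone cluster genes) have 0.34 and the 6 dehydrins 3.56.

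Transcription factors whose predicted targets in the study's regulon table include these markers were read from the same libraries, with VP1 and CR4 beside them. HB91, a homeobox factor with VPP7 and SBT1 among its targets, rose by 0.65 ± 0.04 at 7 DAP (SE, edgeR adjusted p = 7.5e-12). MYB83, linked to VPP7, rose by 0.68 ± 0.06, OCL1, a homeobox factor of the outer cell layer linked to SBT1, by 0.46 ± 0.04, and WRKY105, also linked to SBT1, by 0.21 ± 0.06 (SE). VP1, the seed maturation factor, rose by 0.74 ± 0.06 (SE). CR4 was at -0.08 ± 0.06 at 7 DAP (SE, edgeR adjusted p = 0.23) and was lower in protoplasts by 1.16 ± 0.16 (SE, edgeR adjusted p = 0.0059).

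Of the 6 regulators, 3 were called higher in protoplasts over both stages and 1, CR4, lower. Of all tested genes 23.0% were called higher in that fit and 16.3% lower. Over both stages WRKY105 was higher in protoplasts by 2.42 ± 0.14 and OCL1 by 0.93 ± 0.18 (SE, edgeR adjusted p = 7.2e-04 and 0.016), and VP1 was higher by 0.93 ± 0.17. The count of 3 fell without 7 DAP protoplasts, 6 DAP protoplasts or 6 DAP undigested endosperm, in fits with no term for stage. WRKY105 was at 191 and 146 CPM in protoplasts at 7 and 6 DAP, against 33.01 and 29.5 CPM in undigested endosperm. HB91 at 0.14 ± 0.20 and MYB83 at -0.13 ± 0.16 (SE) were not called in that fit. At 7 DAP alone, both were called lower in protoplasts, HB91 at -0.18 ± 0.06 and MYB83 at -0.29 ± 0.10 (SE, edgeR adjusted p = 0.019 and 0.016), and at 6 DAP HB91 was called higher at 0.48 ± 0.07 and MYB83 was at 0.04 ± 0.11 (SE, edgeR adjusted p = 2.5e-06 and 0.78). In stage change HB91 differed between protoplasts and undigested endosperm by -0.66 (95% interval -0.85 to -0.46, edgeR adjusted p = 2.6e-05), beside the -0.63 of VPP7. HB91 was at 85.0 and 86.9 CPM in protoplasts at 7 and 6 DAP, against 96.2 and 62.4 CPM in undigested endosperm. OCL1 differed by -0.55 (-0.73 to -0.37, edgeR adjusted p = 9.0e-05). The regulators did not share one direction in this contrast. Of the 6, 2 were called downward, 1 was called upward and 3 did not pass the test. Their differences ranged from -0.66 to 0.47, and VP1 had the highest.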

How the data were processed

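Bulk RNA-seq was measured in 10 libraries. Per the labels and the study's methods, the authors trimmed reads with Trimmomatic 0.39, aligned them to the B73 v4 genome with STAR, and counted uniquely mapped reads per gene with featureCounts 2.0.1. They deposited raw counts in 2 tables of 45953 genes. Strand handling of the counting was not given in the sources used here. Gene names come from the study's supplementary tables, since 0 of the 4 marker identifiers matched the RefSeq gene table, which is of another assembly; no coordinates, gene lengths or other sequences of the markers were used here.

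From the counts, edgeR 4.0.16 (R 4.3.3) was run with TMM, filterByExpr and quasi-likelihood testing, and p-values were adjusted over all tested genes by Benjamini-Hochberg. The replicated stages were fitted on 6 libraries, protoplasts against undigested endosperm on 4 with stage as a covariate, and other contrasts on 6 group means over all 10 libraries, where single libraries borrow the replicated spread. The contrasts of undigested with replicated endosperm were added after the values were seen. Intervals use edgeR's moderated degrees of freedom. A call is an adjusted p under 0.05. DESeq2 1.42.0, for the fits of 6 and of 4 libraries, and other size factors and filters were alternatives. Libraries were also left out 1 at a time, the replicated ones in the fits of 6 and 10 libraries and the single ones in the fit of 4. With a library left out, the fit of 4 had no term for stage. Replicates differed by more than counting noise (chi-square per degree of freedom 1.67 to 3.58), and p-values of the fit of 6 libraries measure the spread between these samples. No p-value of the fits of 4 or 10 libraries measures a spread between repeated protoplast libraries. Each fit was tested on simulated data: for the replicated stages 100% of 200 genes changed by 0.5 were recovered among 21234, and for the difference of stage changes 42.5% among 23232.

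The markers and gene lists were chosen with earlier results of these data known. Of each list, up to 3 genes with the largest rise and fall past the adjusted p in either comparison were named, with every regulator and the 5 genes most like each marker. The fit of the replicated stages follows the study, which used edgeR with 6 DAP as the reference there, and the other fits follow no design of the study.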

Additional observations from a re-analysis of the deposited data

Results flagged for a closer look

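The stage change of 3 markers differed between the single protoplast and undigested libraries by the test of the difference itself. The log2 differences, protoplasts minus undigested endosperm, were -0.19 for AL9, -0.63 for VPP7 and -0.39 for SBT1. Beside them, the summed BETL markers were at 1520 CPM in 7 DAP protoplasts, against 1092 CPM in 7 DAP undigested endosperm, and at 1240 CPM in 6 DAP protoplasts, against 3154 CPM in 6 DAP undigested endosperm. Most of the 7 DAP sums was 1d052759, at 1040 CPM in protoplasts, against 738 CPM. MRP1, 1d053108 and 1d053785 were also higher in 7 DAP protoplasts. BETL9 was lower there, at 55.8 CPM, against 110 CPM in undigested endosperm, and TCRR1 was at 7.60 CPM, against 8.16 CPM. The nucellus marker 1d046765 was at 46.1 CPM in 7 DAP protoplasts, against 14.5 CPM in 7 DAP undigested endosperm, and at 2.50 CPM in 6 DAP protoplasts, against 6.80 CPM in 6 DAP undigested endosperm. The part of other cell types in the markers' difference was not tested.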

How the results depend on the processing

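The stage change of each of the 4 markers in replicated endosperm kept its direction and its call under every alternative run. The differences in stage change of AL9, VPP7 and SBT1 kept theirs under other size factors and filters. For these differences only replicated libraries were left out, never 1 of the 4 single libraries they are made of. DESeq2 was not run for them. The count of genes past the adjusted p and the study's fold limit in the replicated stages was 642, and it was 1198 without the filter on low counts and 211 when every library had to reach 10 counts. For the difference in stage change the same count was 479, and 188 with the strict filter. In protoplasts over both stages SBT1 was at -0.55 with RLE size factors and -0.52 with the strict filter. On library totals VPP7 was at -0.68 and 1d024120 at -0.092 in that fit, 1d024120 was at -0.22 for the difference in stage change, and its protoplast change was -0.20 at 7 DAP and 0.020 at 6 DAP. The fits that left out 1 library of 4 had no term for stage, so stage and digestion are mixed in them. In these AL9 ranged between -0.63 and 0.26 and SBT1 between -0.88 and -0.23. VPP7 ranged between -0.76 and -0.27, against -0.51 with all 4, and 1d024120 between -0.21 and 0.40. Genes called higher then numbered 2514 to 4889, against 5255 with all 4 libraries, genes called lower 656 to 2603, against 3725, and genes past the fold limit of 1 3148 to 6001. AL9 turned positive without 7 DAP undigested endosperm (0.26) and without 6 DAP protoplasts (0.10). In both of these fits 7 DAP weighed more on the protoplast side. A change with digestion apart from stage was not tested in them. Of the 5 genes most like AL9, 3 were kept with a pseudocount of 0.1, and 0 of 5 were kept for each marker in the 6 replicated libraries alone.

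With the replicate block the replicated stages gave 6055 genes higher and 5945 lower, and AL9 was at 0.78, VPP7 at 0.42, SBT1 at 0.62 and 1d024120 at 0.48, with no call of a marker changed. The deviations of same-numbered libraries correlated at 0.10, 0.02 and -0.0043, so the numbers were not taken as pairs. A single library per group limits each protoplast value, and counting error does not cover the spread between protoplast preparations or ears.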
